A study of Mus musculus with 2 samples.

Results

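The semaphorins and their receptors are described here in whole mouse lung after bleomycin, as 31 genes of 20886 named on the arrays: 20 semaphorins, 9 plexins and 2 neuropilins. The genes were taken by symbol, through the RefSeq accession of each probe. The family was chosen by measured values of the same 2 arrays, among them a large difference of Plxna1, so that all differences of its members are descriptions and carry no test. The members had 40 probes, each printed in 1 spot. Of these, 38 were well above background on both arrays, and every member had at least 1 such probe (24 members had 1 and 7 had 2).

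The series holds 1 array of a C57BL6/N mouse, labelled male, and 1 of a C57BL6/N mouse, also labelled male, overexpressing HSP27 (heat shock protein 27, the product of Hspb1) as a transgene. Both were 6 weeks old and received bleomycin at 1.25 mg/kg into the trachea, and whole lung was taken after 14 days. The title asks what extra HSP27 does in bleomycin-induced lung fibrosis. The promoter, species and founder line of the transgene, and the number of animals behind each RNA sample are not given in the sources used here, and no array of untreated lung was used here.

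Semaphorins are guidance cues, first known for steering growing axons and also active in blood vessels, epithelia and immune cells. Those of class 3 are secreted, and most of them bind a neuropilin, which pairs with a plexin that carries the signal into the cell. Those of classes 4 to 6 span the membrane and Sema7a is held by a lipid anchor, and these bind plexins or other receptors directly. Neuropilins also serve as co-receptors of vascular endothelial growth factors (VEGFs), so that secreted semaphorins and VEGFs meet on the same endothelial receptors. In the lung the family is known for the patterning of vessels and airways, and Sema7a for its part in TGF-beta driven fibrosis in mice.

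Values are processed signals in intensity units, and differences are log2 values, transgenic minus C57BL6/N, after each array was divided by its 75th percentile of signal (1287 on the C57BL6/N and 1426 on the transgenic array). A gene's difference is the mean over its usable probes. Each group was 1 array, so no difference could be weighed against variation between mice, and this number of arrays limits the precision. The technical spread alone came from probes printed in 10 spots, where the SD of the difference between spots at the same position was 0.15 in dim probes, 0.057 in probes of middle signal and 0.050 in bright probes (3 groups by signal). Counts past 1.5-fold (0.58 on the log2 scale) or 2-fold stand in for a test. In whole lung, fewer cells of a type and less RNA per cell cannot be told apart.

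The arrays differed in ways that stand beside every difference below. Xist, the RNA of the inactive X chromosome, was well above background at both of its probes on the C57BL6/N array alone (521 and 330). Ddx3y and Eif2s3y, which lie on the Y chromosome, were well above background on both arrays. They read 508 and 800 on the C57BL6/N array and 2437 and 3338 on the transgenic array. With Uty, also on the Y chromosome, the differences ran from 1.91 to 2.11. Another Uty probe and Kdm5d were well above background in the transgenic lung only. The C57BL6/N array thus held Xist and Y-linked signal together, although both samples are labelled male, and the reason was not tested. Sex-linked signal and the transgene therefore cannot be told apart. Hspb1 read 41040 on the C57BL6/N and 53554 on the transgenic array, a difference of 0.24, and this mouse probe may not report the transgene. Markers of the lung itself were present, with all 7 alveolar type 2 markers and 7 of 8 alveolar type 1 markers measured on both arrays (medians -0.43 and -0.49), and Rtkn2 without a named probe. Of 12 cardiac muscle markers, 8 could be compared and all 8 were past 2-fold upward (median 3.84), and the other 4 were well above background in the transgenic lung only. Their summed signal, in multiples of the 75th percentile, was 2.01 on the C57BL6/N and 29.3 on the transgenic array. Adipose markers went from 2.24 to 29.4 in summed signal (4 of 5 at least 1.5-fold higher, median 2.32) and airway basal cell markers from 0.498 to 3.75 (5 of 5, median 3.57). With a stricter filter on dim probes (4 times the lowest signal well above background) these medians were 0.24 and 1.13. That filter drops any gene dim on 1 array, such as Cfd (30.3 on the C57BL6/N and 26422 on the transgenic array) and Krt5 (34.3 and 2219). The filtered medians therefore cannot show how firm the differences were. Adipoq, Plin1 and Krt17 were well above background in the transgenic lung only. Cidec (0.63) and Trp63 (0.998) came to 0.24 and -0.23 under the alternative that lowered each most. Airway club and goblet cell markers had the largest median of the marker lists (7.10), with 6 of 7 past 2-fold upward, among them Reg3g at 9.13 and Bpifa1 at 8.78. The club cell gene Scgb1a1 went the other way, at -0.19 (369700 on the C57BL6/N and 359014 on the transgenic array). It was the brightest of the list, and the summed signal of 289 and 387 rested largely on it. The part of carried-over tissue in the differences below was not tested.

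Across the family, differences were small and more often downward. Of the 31 members, 7 were past 1.5-fold downward and 0 past it upward in the transgenic lung, where 8.31% of 15495 genes measured on both arrays were that much lower and 10.2% that much higher. At 2-fold, 2 members were lower and 0 higher, against 1.87% and 3.81% of all genes. The members' median difference was -0.22, beside -0.04 over all genes. There were 20 members below 0 and 11 above it, and 54.0% of all genes lay below 0. Since the contrast chose the family, nothing is read from these shares. Except for Plxna1, every member lay between -1.02 and 0.45.

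**Figure D1:**
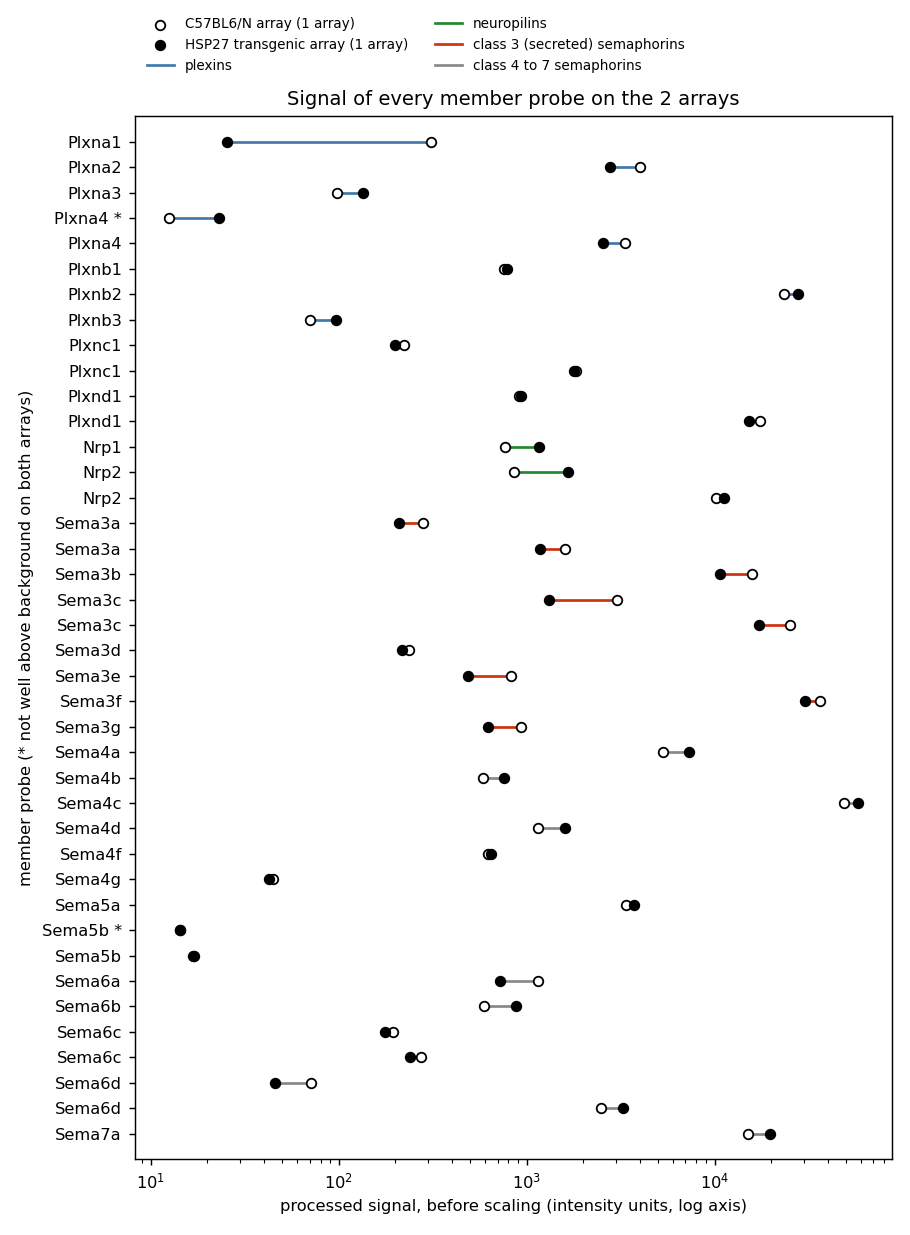
Processed signal of each of the 40 member probes (intensity units before scaling, log axis) on the C57BL6/N array (open circles) and the HSP27 transgenic array (filled circles), joined by a line coloured by role, with 1 array per group and an asterisk for a probe not well above background on both arrays. The 9 probes of class 3 semaphorins all lie to the left on the transgenic array, and Plxna1 moves from 310.0 to 25.4.

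The secreted class 3 semaphorins had values on the same side of 0. All 7 were below 0 in the transgenic lung, with a median of -0.70 and a range from -1.02 to -0.29. At least 1.5-fold lower were 4 of them (Sema3b, Sema3c, Sema3e and Sema3g), beside 8.31% of all genes, and Sema3a, Sema3d and Sema3f fell short of that limit. As the contrast chose the family, these counts only describe it. All 9 of their probes lay below 0. Under each of the 9 other ways of processing, all 7 stayed below 0. Those ways are not 9 separate checks. Keeping outlier spots, the deposited table and either change of the filter on dim probes left the class 3 values almost as they were. The brightest probe can change only genes with more than 1 probe. This class makes up the soluble ligands of the family, several of which repel endothelial cells or axons.

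Sema3c, which guides neural crest and endothelial cells in the developing outflow tract, had 2 probes that disagreed in size. One probe read 3014 on the C57BL6/N and 1319 on the transgenic array (-1.34), and the other 25190 and 17212 (-0.70). Both probes were lower, but their differences were 0.64 apart, more than the repeat-spot SD. The gene's mean was -1.02, a 2.03-fold lower level, the largest among the ligands, and with the brighter probe alone it was -0.70, closer to 0 than Sema3e, Sema6a, Sema3g and Sema3b.

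Sema3e, the class 3 ligand that binds Plxnd1 without a neuropilin and restrains vessel growth, read 822 on the C57BL6/N and 490 on the transgenic array, a difference of -0.89 (1.86-fold lower). Sema3g, a ligand best known from endothelium of arteries, read 928 and 625, a difference of -0.72 (1.65-fold lower). Sema3b, known as a candidate tumour suppressor in lung epithelium, read 15763 and 10723, a difference of -0.70 (1.63-fold lower). These 3 genes rested on 1 probe each. In each the difference was over 10 times the repeat-spot SD, which covers only the scatter between spots of the same 2 arrays. The error that the scanner software gives for each spot was wider. On the C57BL6/N and transgenic arrays it was 82.2 and 49.1 for Sema3e, 92.8 and 62.5 for Sema3g, and 1576 and 1072 for Sema3b.

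Sema3a, the first collapsin of growth cones and a ligand of Nrp1, lay just short of the 1.5-fold limit. Its probes read 1608 and 281 on the C57BL6/N array and 1181 and 210.0 on the transgenic array, and gave -0.59 and -0.57. These probes differed by less than the repeat-spot SD. Sema3f, the preferred ligand of Nrp2, read 36484 and 30156 (-0.42). Sema3d read 237 and 216 (-0.29), the smallest difference of the class.

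The stretches upstream of the genes of this class are shown for the class 3 members at least 1.5-fold lower that the RefSeq table of promoters holds. They are the 250 bases before the annotated start (GRCm38.p6, + strand), and capitals mark matches to the GC box GGGCGG or its reverse complement CCGCCC, the letters bound by Sp1.
Sema3c, chr5:17574566-17574815: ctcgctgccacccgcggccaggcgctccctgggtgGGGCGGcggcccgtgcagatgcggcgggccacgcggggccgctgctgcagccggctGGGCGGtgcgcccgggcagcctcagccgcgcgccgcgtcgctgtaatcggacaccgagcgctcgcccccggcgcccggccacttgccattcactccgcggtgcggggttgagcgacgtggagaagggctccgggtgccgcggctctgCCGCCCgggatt
Sema3e, chr5:14025026-14025275: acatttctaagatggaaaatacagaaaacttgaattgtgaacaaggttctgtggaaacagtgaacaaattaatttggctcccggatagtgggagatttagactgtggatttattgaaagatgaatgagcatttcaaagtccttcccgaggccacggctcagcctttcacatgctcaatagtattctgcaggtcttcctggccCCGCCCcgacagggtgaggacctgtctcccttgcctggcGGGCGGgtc
Sema3g, chr14:31217623-31217872: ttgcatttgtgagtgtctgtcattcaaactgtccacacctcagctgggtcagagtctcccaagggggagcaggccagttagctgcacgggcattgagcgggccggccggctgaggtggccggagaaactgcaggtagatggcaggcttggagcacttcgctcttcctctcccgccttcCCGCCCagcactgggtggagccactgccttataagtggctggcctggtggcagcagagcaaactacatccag
The GC box was found on either strand in 3 of the 5 class 3 windows in the table, with none in those of Sema3a and Sema3d, in 27 of 37 windows of all members and in 32.7% of 32851 windows of all genes. The same search found TATAAA in 0 of the 37 member windows and in 12.4% of all windows, and the 5 class 3 windows held neither the E-box CACGTG nor the letters TGACTCA that AP-1 binds. Those were in 6.02% and 4.46% of all windows. The windows differ in GC content, at 78.4% for Sema3c, 48.0% for Sema3e and 60.4% for Sema3g. A match is a string of letters and not a measured site.

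**Figure D2:**
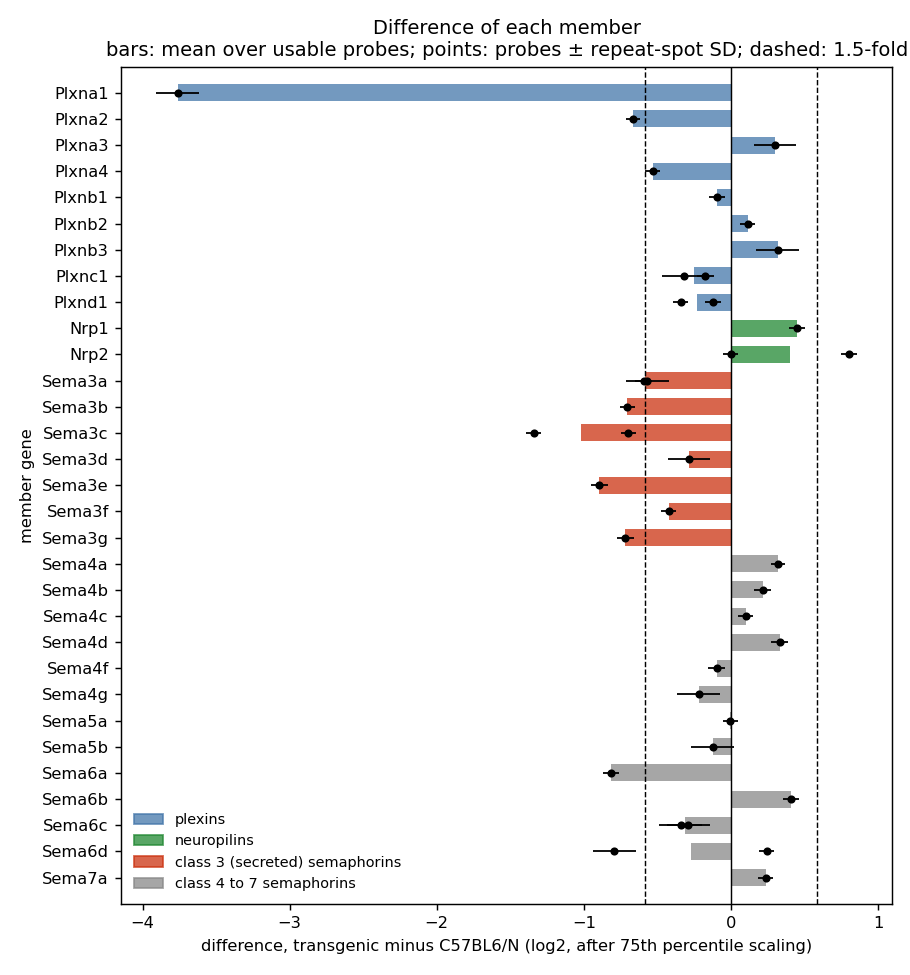
Difference of each of the 31 members on the log2 scale (transgenic minus C57BL6/N, 1 array each), with bars for the mean over usable probes, points for single probes, error bars for the SD of repeat spots and dashed lines at 1.5-fold. The 7 class 3 semaphorins lie between -1.02 and -0.29, Plxna1 at -3.76, and both neuropilins above 0 (Nrp2 at 0.00 with its brighter probe alone).

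The membrane-bound semaphorins did not move as a class. The median of the 13 members of classes 4 to 7 was 0.00, from -0.82 to 0.41, and 1 was at least 1.5-fold lower, beside 8.31% of all genes. The median came to 0.22 with the stricter filter on dim probes and 0.10 with the brightest probe. The one past that limit was Sema6a, a ligand of Plxna2 and Plxna4 that is expressed in endothelium, which read 1152 on the C57BL6/N and 726 on the transgenic array (-0.82, 1.76-fold lower). Its relative Sema6b, which binds Plxna4, read 596 and 876 and was higher by 0.41. Sema6c gave -0.29 and -0.34 at its probes, at signals of 195 and 274 on the C57BL6/N and 177 and 240 on the transgenic array. Sema6d, which binds Plxna1, had probes in opposite directions. The brighter read 2489 and 3263 (0.24), and the dimmer read 71.2 and 45.5 (-0.79). The mean of -0.27 for Sema6d therefore describes neither probe.

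Semaphorins of class 4, several of which act in immune cells, lay close to 0. Sema4d, which is shed from T cells and binds Plxnb1, read 1154 on the C57BL6/N and 1609 on the transgenic array (0.33). Sema4a, which is expressed on dendritic cells and lymphocytes, read 5298 and 7328 (0.32). Sema4b (0.22), Sema4c (0.10), Sema4f (-0.10) and Sema4g (-0.22) gave smaller values, and the Sema4g probe was dim (44.7 and 42.5). Macrophage and monocyte markers were higher on the same array, 6 of 10 being past 1.5-fold upward and 2 past it downward (median 0.72, summed signal 28.2 and 44.4), and T cell and NK cell markers had 0 of 9 higher and 1 lower (median -0.18, summed signal 5.30 and 4.68). Over all genes the shares past 1.5-fold were 10.2% upward and 8.31% downward. The part of these immune cells in the class 4 values was not tested.

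Sema5a, which carries thrombospondin repeats, read 3386 and 3742, which is 0.00 after scaling. Sema5b was at the edge of detection, with 16.7 on the C57BL6/N and 17.0 on the transgenic array at 1 probe (-0.12) and another probe not well above background on either. The lowest signals well above background were 11.9 and 12.5. Sema7a, the anchored ligand of Plxnc1 and of integrin beta 1 linked to lung fibrosis, read 15064 and 19656, a difference of 0.24 (1.18-fold higher). That lies within the central 95% of all genes, which ran from -0.92 to 1.24, as did every member except Sema3c and Plxna1.

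The class A plexins ranged from -3.76 to 0.30, with a median of -0.60 that came to -0.28 without the filter on dim probes. These are the signalling partners of neuropilins, and their cytoplasmic part stimulates the GTPase activity of Rap proteins. Plxna1 had 1 probe on the arrays, so no second probe could be set beside it. That spot read 310.0 ± 31.1 on the C57BL6/N and 25.4 ± 3.86 on the transgenic array, where the error is the one the scanner software gives for the spot. The difference was -3.76 (13.5-fold lower), the lowest of the 15495 genes measured on both arrays, and it is one of the values that chose the family. Of 26387 usable probes, named or not, 2 were this low or lower, its own among them. Genes that were at background on the transgenic array are outside this ranking. Xist is one of them, with 521 and 330 on the C57BL6/N and 2.83 and 3.36 on the transgenic array.

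The size of the Plxna1 difference varied with the processing. The spot was dim on the transgenic array. Its median pixel was 73.0 there over a local background of 28, against 375 over 31 on the C57BL6/N array. With normexp, which used these medians in place of the processed signal and added an offset of 50, it was 4.75-fold lower (-2.25), and which of these steps moved the value was not tested. Under the stricter filter on dim probes the gene was no longer measured. Neither spot was flagged as an outlier. The 16 other spots within 4 rows and 2 columns that were well above background on both arrays had a median difference of 0.09, from -0.92 to 1.22, a check chosen after the value was seen.

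Plxna2, a receptor of Sema6a and, with neuropilins, of class 3 ligands, read 3986 on the C57BL6/N and 2785 on the transgenic array, a difference of -0.67 (1.59-fold lower). Plxna4, the receptor that Sema3a uses in sensory neurons, had probes that differed. The brighter read 3331 and 2551 (-0.53). The other (12.5 and 23.2) was well above background in the transgenic lung only. After scaling, its signals differed by 0.74 (1.67-fold higher). That is a plain difference and not a lower limit, as the C57BL6/N signal was not well above background. Plxna3, an X-linked gene, read 98.4 and 134 (0.30). Within class A, Plxna1 and Plxna2 were past 1.5-fold downward, while Plxna3 lay above 0.

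The other plexins lay within 1.5-fold. Plxnb2, a receptor of Sema4c with roles in epithelial repair, read 23308 and 27952 (0.11), and Plxnb1, the receptor of Sema4d, read 758 and 787 (-0.10). The X-linked Plxnb3 read 70.2 and 96.9 (0.32). Plxnc1, the receptor of Sema7a on myeloid cells, gave -0.32 and -0.17 at its probes. Plxnd1, the endothelial receptor of Sema3e, read 913 and 17443 on the C57BL6/N array and 930 and 15255 on the transgenic array, with differences of -0.12 and -0.34. The median over all 9 plexins was -0.23 and over the 8 plexins other than Plxna1 -0.16, which came to 0.00, just above 0, without the filter on dim probes.

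Both neuropilins were above 0, in contrast to their secreted ligands. Nrp1, which binds Sema3a and VEGFs, read 767 on the C57BL6/N and 1160 on the transgenic array (0.45, 1.36-fold higher). Nrp2, known from veins and lymphatic vessels, had probes for different RefSeq transcripts. The one for NM_001077406 read 855 and 1653 (0.80, 1.74-fold higher), and the one for NM_001077403 read 10147 and 11224, equal after scaling (0.00). The Nrp2 value of 0.40 is the mean of these, and it fell to 0.00 with the brighter probe alone. Where the probes lie in the transcripts is not given in the files, and whether the variants of Nrp2 differed was not tested.

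**Figure D3:**
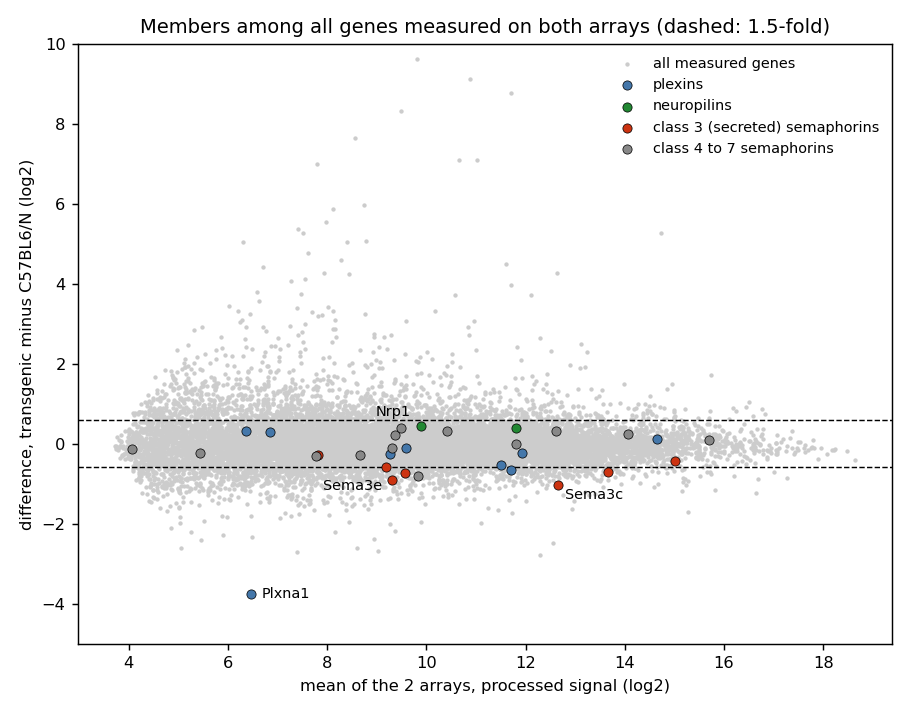
Difference (log2, transgenic minus C57BL6/N) against the mean processed signal of the 2 arrays (log2) for 15495 genes in grey and the 31 members in colour by role, with dashed lines at 1.5-fold. Plxna1 lies below all other genes measured on both arrays, at a low mean signal, while most members lie between the dashed lines.

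Ligand and receptor values can be set side by side by known pairs. Sema3e was at -0.89 and its receptor Plxnd1 at -0.23. Sema3a was at -0.58 and Nrp1 at 0.45, and Sema3f was at -0.42 and Nrp2 at 0.40 (0.00 with its brighter probe alone). For pairs at the membrane, Sema6a was at -0.82 and Plxna2 at -0.67, Sema4d at 0.33 and Plxnb1 at -0.10, Sema4c at 0.10 and Plxnb2 at 0.11, and Sema7a at 0.24 and Plxnc1 at -0.25. Class A plexins signal for neuropilin-bound ligands, and Plxna1 (-3.76) and Plxna2 (-0.67) lay below Sema3a and Sema3f. Plxna4 (-0.53) was close to Sema3a, and Plxna3 (0.30) lay above both ligands. Each secreted ligand listed lay below its Plxnd1 or neuropilin receptor, while the class A plexins and the membrane pairs showed no common order.

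Markers of some other cells of the lung also had values below 0. Over all genes, 8.31% were at least 1.5-fold lower and 10.2% at least 1.5-fold higher. All 14 endothelial markers were below 0, with 9 at least 1.5-fold lower (median -0.66), and their summed signal in multiples of the 75th percentile was 331 on the C57BL6/N and 204 on the transgenic array. All 14 were well above background on both arrays. Of the alveolar type 1 markers, 3 of 7 were at least 1.5-fold lower and Pdpn was at 0.01 (summed signal 128 and 86.8), and of the alveolar type 2 markers 0 of 7 were, although all 7 were below 0 (summed signal 571 and 433). All 5 B cell markers measured on both arrays were below 0, with 3 at least 1.5-fold lower (median -0.74, and -0.34 with normexp; summed signal 7.14 and 4.50), and Pax5 stood clear of background in the C57BL6/N lung alone. Of the lymphatic markers, Lyve1 was at -0.66, Mmrn1 at -0.18, and Prox1 and Reln were not well above background on either array. Smooth muscle markers were higher (6 of 6 at least 1.5-fold, median 1.35, summed signal 33.9 and 78.5), as were 5 of 10 fibroblast markers (median 0.56, summed signal 155 and 242). Nerve and glial markers had 3 of 8 higher and 1 lower (median 0.45, summed signal 10.9 and 9.13). The part of these cell types in the class 3 values was not tested.

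Of 15 other receptors and receptor partners of semaphorins, 14 were measured on both arrays. At 1.5-fold 4 were higher and 3 lower (median -0.02), beside 10.2% and 8.31% of all genes. Chl1, an adhesion molecule that partners Nrp1 in axons, was 19.0-fold higher (75.5 and 1589 as means over 2 probes). Islr2 was at 1.46 from a dim probe (30.9 and 94.1), and at 0.59 under the alternative that lowered it most. Tyrobp, the adaptor of the Trem2 and Plxna1 complex, was at 0.95 and L1cam, the partner of Nrp1 in Sema3a signalling, at 0.76. On the lower side were Itga1, the alpha chain of an integrin bound by Sema7a, at -1.01, the VEGF receptors Kdr at -0.75 and Flt1 at -0.68. The endothelial markers above lay in the same direction as these VEGF receptors.

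Inside the cell, 29 partners of plexins had a median of -0.12. At 1.5-fold 4 were higher and 1 lower, beside 10.2% and 8.31% of all genes. Dpysl2 (CRMP2), the mediator of growth cone collapse by Sema3a, read 28973 on the C57BL6/N and 20016 on the transgenic array (-0.68). Dpysl4 was at 0.93 from a dim probe (14.7 and 31.1), the kinase Pak1 at 0.78, the plexin-binding GTPase Rhod at 0.67 and the neuropilin-binding Gipc1 at 0.59. Under at least 1 alternative Dpysl4 (0.19), L1cam (0.35), Rhod (0.46), Gipc1 (0.56) and Pak1 (0.57) fell short of 1.5-fold. The Rap protein Rap1a was at -0.57 and Rhoa at -0.45. Among 6 VEGF family and HGF ligands, which share neuropilins or Met with the family, Vegfa was 2.12-fold lower and Pgf 2.13-fold higher (median -0.02).

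Other guidance families were set beside the semaphorins. At 1.5-fold, 8.31% of all genes were lower and 10.2% higher, and of the 31 members of the semaphorin family 7 were lower and 0 higher. Of 22 ephrins and Eph receptors, 21 were measured, with 5 at least 1.5-fold lower and 0 higher (median -0.09). The lower ones included Efnb3 at -1.10, Epha8 at -1.003 and Efnb2, the ephrin of arteries, at -0.95. Efnb3 and Epha8 had dim probes and came to -0.41 and -0.36 under the alternative that moved them most. Of 21 slits, netrins and their receptors, 16 were measured, with 3 lower and 0 higher (median -0.05), namely the endothelial Robo4 at -1.003, Robo2 at -0.97 and Ntn4 at -0.91. Whether class 3 semaphorins differed from these families could not be tested with 1 array per group.

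**Figure D4:**
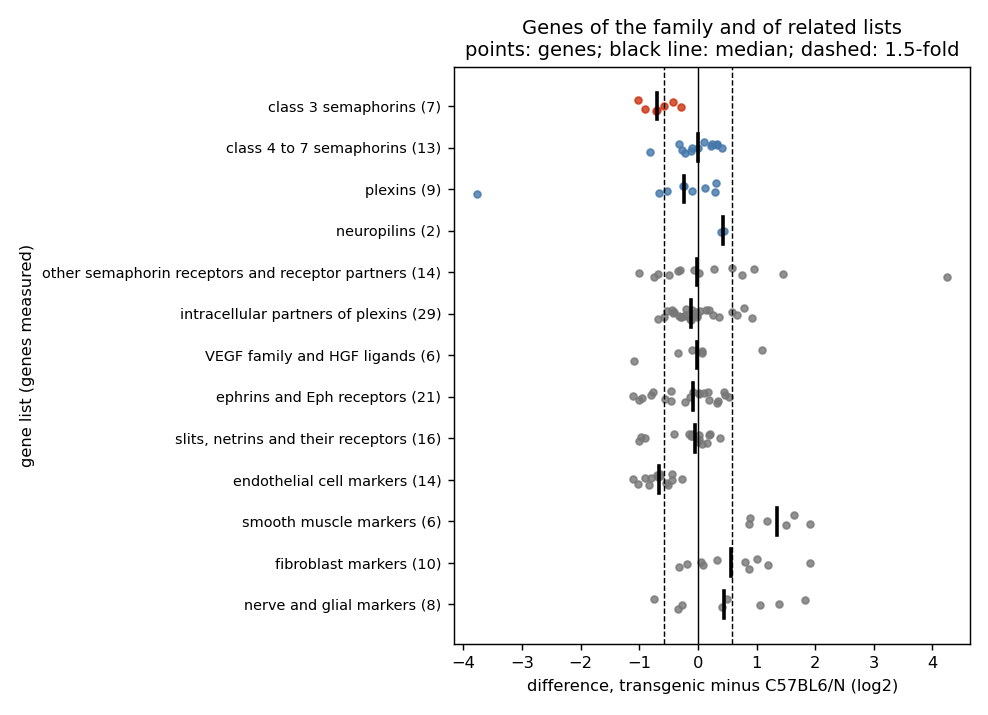
Differences (log2, transgenic minus C57BL6/N) of single genes as points in the 4 subgroups of the family, in lists of receptor partners, other guidance families and cell markers, with the median of each list as a black line, dashed lines at 1.5-fold and the number of genes measured in brackets. The class 3 semaphorins (median -0.70) and the endothelial markers (median -0.66) lie below 0 throughout, and the class 4 to 7 semaphorins have a median of 0.00.

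The grid of settings shows how far each member depended on the processing. None of the 7 members past 1.5-fold downward changed direction, and of these Plxna1 moved most (-2.25 with normexp). Direction turned for 4 members within 1.5-fold, which were Plxna4 without a filter on dim probes (0.10), Nrp2 (0.00) and Sema6d (0.24) with the brightest probe, and Sema5a, which stayed between 0.00 and 0.05. Sema6d was also at 0.24 under the stricter filter, which kept its brighter probe alone.

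**Figure D5:**
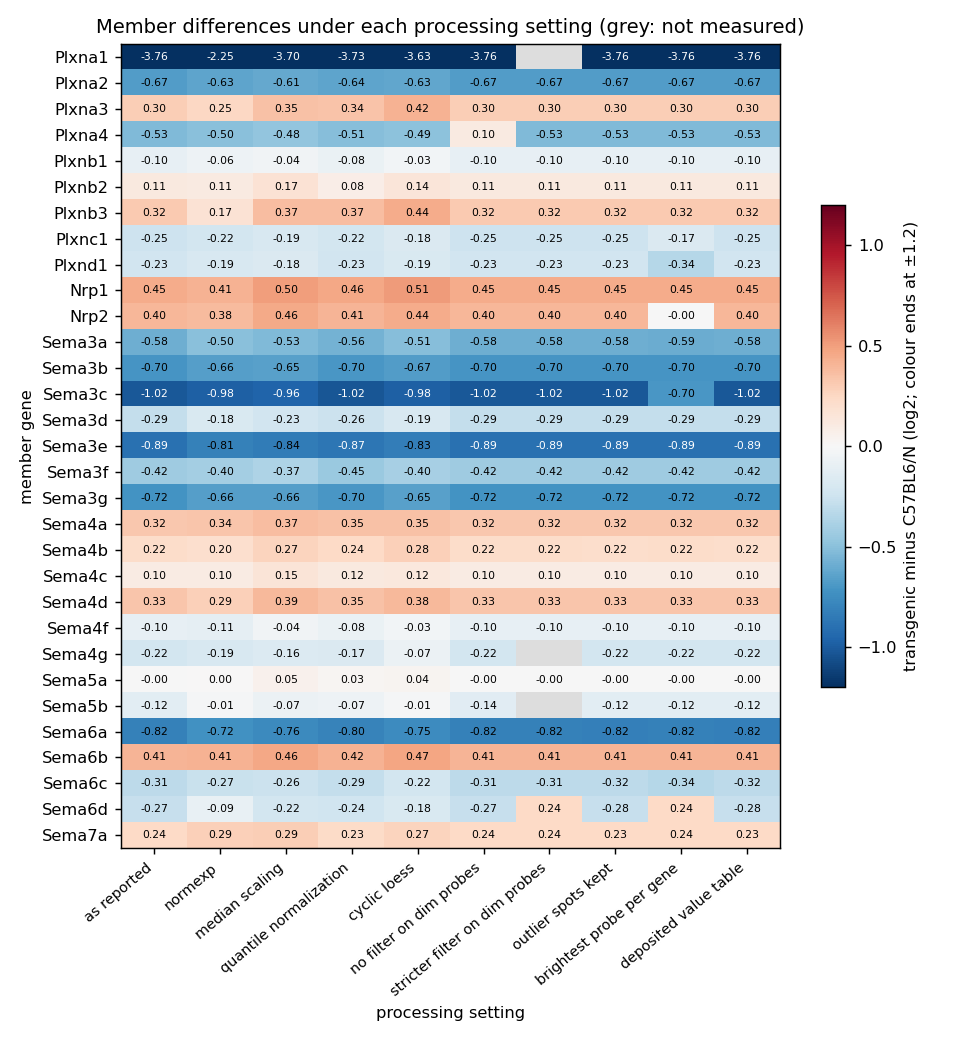
Difference of each member (rows; log2, transgenic minus C57BL6/N) under the reported processing and 9 alternatives (columns), with blue for lower and red for higher, colours ending at ±1.2 and grey where a gene was not measured. The class 3 semaphorins are below 0 in every column, and Plxna1 ranges from -3.76 to -2.25.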

How the data were processed

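The members and gene lists were chosen with earlier results of these data known. Per the file headers, the deposited files hold spot intensity from Agilent Feature Extraction 11.5.1.1, 1-colour (Cy3), with the background subtracted, spatial trends removed and no normalization between arrays, and flags for spots above background, saturated or outlying. The authors' deposited value table is also a linear intensity, equal within 0.1% to the processed signal at 39022 and 39020 probes. Both arrays lay on 1 slide and in 1 scan.

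Outlier and control spots were left out, signals taken to log2, spots averaged per probe, and each array's 75th percentile over 39429 probes subtracted. Usable probes (26387) had 50% or more of their spots well above background, and none saturated, on each array. A probe above background on 1 array was compared with the higher of the other array's lowest signal well above background and the probe's own signal there. Genes were named by RefSeq accession (GRCm38.p6 table, 27508 probes); the headers name mm9, so its gene positions were not used, and promoters carry the table's build. All members are named, and in each list up to 3 genes per direction past 1.5-fold. L1cam, Gipc1, Rap1a, Rhoa, Cidec, Trp63, Pdpn, Pax5, Adipoq, Plin1, Krt17, Scgb1a1 and the lymphatic markers were named after their values were seen. Scaling and averaging per gene were run on simulated arrays with known differences and the same noise at every probe. That simulation held no background signal and no spot flags, so it cannot speak for dim values such as that of Plxna1. Python 3.11.15, numpy 2.4.6, pandas 2.3.3, matplotlib 3.10.9, R 4.3.3 and limma 3.58.1 (normexp with offset 50, cyclic loess) were used.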

Additional observations from a re-analysis of the deposited data

How the results depend on the processing

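The 9 alternatives were normexp on median signals (without 7 spots whose local background reached their signal), scaling to the median, quantile normalization, cyclic loess, no or a stricter filter on dim probes, keeping outlier spots, a gene's brightest probe and the deposited table. The 7 members at least 1.5-fold lower became 6 with the stricter filter and 8 with the brightest probe, and 0 members were 1.5-fold higher in any of them. The class 3 median stayed between -0.70 and -0.65. At 2-fold, 1 member was lower with normexp, median scaling, cyclic loess, the stricter filter and the brightest probe. The members' median was -0.11 with normexp, -0.073 with cyclic loess, -0.14 without the filter, -0.10 with the stricter filter and -0.12 with the brightest probe, and that of the plexins was -0.10 without the filter, -0.16 with the stricter one, which measured 28 members, and -0.17 with the brightest probe. Of 276 member values under alternatives, 239 moved by less than the repeat-spot SD, 37 by more, and 0 of those past 1.5-fold changed sign. Several alternatives return nearly the same value for a gene with 1 bright probe, so the 239 are not separate checks. Over all genes, counts higher and lower at 1.5-fold were 980 and 682 with normexp and 2526 and 2080 without the filter, and at 2-fold 306 and 112, and 1195 and 736. The share of upward genes among those past 1.5-fold was 55.1%, and 66.5% with cyclic loess. Among those past 2-fold it was 67.2%, and 77.3% with cyclic loess. The cause of these shifts was not tested. No paired analysis was possible because each group has 1 array. Dim signals limit Plxna1, Sema5b, Sema4g and one probe each of Plxna4 and Sema6d.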

Other observations

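The upstream windows of the members were rich in GC. Over 37 windows of 26 members in the promoter table the median was 64.0% GC with 13 CpG steps in 250 bases, beside 52.4% and 6 over 32851 windows of all genes, which include genes that make no protein. Sema3a (40.8%, 2 CpG steps) and Sema3d (46.8%, 4) lay at the low end, and Sema3c (78.4%, 39) was the highest of the members. Windows of 1 gene can overlap, and no reading of these values for expression was tested.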
